A study of Homo sapiens with 16 samples.

Results

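The histone gene cluster on the short arm of chromosome 6 was examined in ATAC-seq counts of 2 established cell lines. It was taken as every peak of the deposited annotation that lies on chromosome 6 from 26 Mb to 28.5 Mb (hg38), which gave 180 of the 164980 peaks. Of these members, 53 carry the deposited promoter-TSS class, out of 20533 such peaks in all, and the other 127 were listed as intergenic (74), intronic (26), exonic (14) or at a transcription end (13).

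Cal33 and SAS are lines of HPV-negative squamous carcinoma of the head and neck. Each line had 1 siControl and 1 siITGA7 group with 4 biological replicates each. Cells of siControl groups had received a siRNA without a target and cells of siITGA7 groups one against ITGA7, the gene of the integrin chain alpha 7. Cells of all groups were transfected, moved at 24 h into a laminin-rich matrix, which is a ligand of this integrin, and gave nuclei at 48 h. Each line is 1 tumour-derived culture, and accessibility does not measure how far the siRNA lowered ITGA7. Library totals in peaks were 3980563 to 8367079 in Cal33 siControl, 8646532 to 13285086 in Cal33 siITGA7, 1766033 to 4870187 in SAS siControl and 758590 to 1867047 in SAS siITGA7. Cal33 siControl replicates 1 and 2 and Cal33 siITGA7 replicate 4 had 2 sequencing runs, and every other library had 1. Of the squamous epithelium markers, KRT5, SFN, DSG3 and PKP1 had a peak over the start (7.26 to 101 CPM per kb over the groups) and TP63 had none over the RefSeq start used, while KRT14, CDH1 and EPCAM were not analysed here. The fibroblast marker PDGFRB and the blood cell marker PTPRC had none, and the other markers of fibroblast, endothelial and blood cells on the lists were not analysed here.

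Replication-dependent histone genes supply the core histones H2A, H2B, H3 and H4 and the linker histone H1 during DNA synthesis. Many stand in head-to-head pairs that share 1 short promoter, their transcripts end in a stem-loop in place of a poly(A) tail, and their transcription is gathered in a nuclear body organised around NPAT. The same stretch of chromosome 6 also carries many tRNA genes, which are transcribed by RNA polymerase III from promoter elements inside the gene, as well as butyrophilin and zinc finger genes.

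The promoter class and the histone genes were not the same set. RefSeq lists 53 coding histone genes in the window, and 49 of their starts lay in 32 members, of which 16 held at least 2 starts. Only 20 of these 32 peaks were of the promoter class, with 35 histone starts, while 12 peaks with the other 14 starts were listed as exonic or at a transcription end. No member lay over the starts of H1-6, H4C6, H4C7 and H4C9. A further 54 members lay over a tRNA gene without a histone start, 69 tRNA genes in all, and 47 of these 54 peaks were outside the promoter class. The grouping by tRNA genes was added after the lists had been set. Of the rest, 17 lay over the start of another gene and 77 over no listed start. Near-identical copies occur among both histone and tRNA genes, and the sources used here do not say how reads with several matches were treated, so that the level of a single copy is uncertain.

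The stretches before 4 histone starts are shown because their peaks mark the ends of the comparison between the lines below. H2AC11 has its start in the peak with the highest ratio of Cal33 to SAS, and its window reaches back to the start of H2BC11 on the other strand. H2BC13 has its start in the promoter-class histone peak with the next highest ratio. H4C13 lies in the histone peak with the lowest ratio that was still called higher in Cal33, and H1-5 in the histone peak that was called lower. Each sequence is the 250 bases before the start on the gene's strand, from RefSeq on GRCh38.p14, at chr6:27132793-27133042 (plus strand) for H2AC11, chr6:27807930-27808179 (minus) for H2BC13, chr6:27873535-27873784 (minus) for H4C13 and chr6:27867589-27867838 (minus) for H1-5. The H1-5 peak ends at 27867637, so that most of the stretch shown for H1-5 lies outside it. Capitals mark matches on either strand, which may overlap, to the 4 motifs spelled out after the sequences.
H2AC11: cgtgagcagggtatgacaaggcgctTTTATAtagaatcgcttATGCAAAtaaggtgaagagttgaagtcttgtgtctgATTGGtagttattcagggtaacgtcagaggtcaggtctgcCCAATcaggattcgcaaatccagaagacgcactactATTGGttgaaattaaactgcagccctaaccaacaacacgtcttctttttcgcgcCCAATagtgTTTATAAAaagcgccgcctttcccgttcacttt
H2BC13: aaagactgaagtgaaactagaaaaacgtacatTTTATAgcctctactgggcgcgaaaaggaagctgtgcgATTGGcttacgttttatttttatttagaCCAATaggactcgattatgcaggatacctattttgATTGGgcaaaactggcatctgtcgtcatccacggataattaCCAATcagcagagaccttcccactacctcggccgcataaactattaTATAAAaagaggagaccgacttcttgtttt
H4C13: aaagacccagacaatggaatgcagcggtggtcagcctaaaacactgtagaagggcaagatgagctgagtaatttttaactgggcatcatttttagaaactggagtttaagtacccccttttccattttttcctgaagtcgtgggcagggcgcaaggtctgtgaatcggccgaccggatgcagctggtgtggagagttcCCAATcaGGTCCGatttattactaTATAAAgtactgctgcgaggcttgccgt
H1-5: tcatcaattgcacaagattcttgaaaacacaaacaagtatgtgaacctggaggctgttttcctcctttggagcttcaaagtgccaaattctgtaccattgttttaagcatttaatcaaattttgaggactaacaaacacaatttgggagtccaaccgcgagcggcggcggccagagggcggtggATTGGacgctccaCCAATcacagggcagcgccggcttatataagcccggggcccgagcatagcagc

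CCAAT is the box bound by NF-Y, TATAAA the core of a TATA box, TTTGCAT the core of the octamer bound by OCT1 (POU2F1) in H2B promoters, and GGTCCG part of an element known from H4 promoters that HINFP binds. The promoter table held 48 of the 53 histone genes of the window. CCAAT was present in 41 of the 48 (85.4%), against 32.0% of all 35116 promoters of the same length, and in all 6 H1, 10 H2A, 14 H2B and 8 H3 promoters but 3 of 10 H4 promoters. TATAAA was present in 31 (64.6%) against 10.7%. The octamer core was present in 20 (41.7%) against 3.94%, of which 8 were H2A and 11 were H2B promoters. Windows of head-to-head pairs can overlap, as for H2AC11 and H2BC11, so that 1 site can count for both genes. GGTCCG was present in 9 of the 10 H4 promoters and in 1 H3 promoter, against 9.43% of all promoters. A match is a description of the letters and not a bound site. Among the sequences shown, H2AC11 held 4 matches to CCAAT, 3 to TATAAA and 1 to the octamer core, and H2BC13 held 4 to CCAAT and 2 to TATAAA. H4C13 held 1 match to CCAAT, 1 to the TATA box and 1 to GGTCCG, and H1-5 held 2 CCAAT matches and none of the other motifs.

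By their medians, peaks over histone starts were wider and, per length, more accessible than the other kinds of member, although single tRNA peaks exceeded them. Their median width was 2193 bp, against 1322 bp for peaks over tRNA genes and 537 bp for all peaks of the series. The widest histone peak spanned 4336 bp and the widest tRNA peak 4521 bp. In siControl libraries the median level of histone peaks was 37.7 CPM per kb in Cal33 and 9.35 CPM per kb in SAS, where CPM stands for counts scaled to a common library size with TMM factors over all 16 libraries. Peaks over tRNA genes stood at 8.89 and 6.01 CPM per kb, and members without a listed start at 5.62 and 2.91 CPM per kb. The promoter class as deposited stood at 20.5 and 8.46 CPM per kb, against 6.98 and 4.16 CPM per kb for the other members. In Cal33 siControl the histone peaks ranged from 1.63 CPM per kb at H1-5 to 76.0 CPM per kb at H2BC4 and H2AC6, and in SAS siControl from 0.0663 CPM per kb at H2BC11 and H2AC11 to 16.8 CPM per kb at H2BC4 and H2AC6. The highest tRNA peak stood at 53.7 CPM per kb in Cal33 siControl and at 21.2 CPM per kb in SAS siControl. Libraries are bulk nuclei, so that a site open in fewer cells and a site less open in each cell cannot be told apart.

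After ITGA7 siRNA, Cal33 peaks over histone starts were not called in either direction while a number of peaks over tRNA genes rose. Of the 150 members tested in Cal33, 20 rose and 2 fell (edgeR quasi-likelihood test, Benjamini-Hochberg adjusted p under 0.05 over all tested peaks), where 9.19% of all 75230 tested peaks were called, 4.52% higher and 4.67% lower. Peaks over tRNA genes made up 17 of the 20 that rose, out of 49 tested. In SAS 1 of 100 tested members rose and 1 fell, where 7.03% of all tested peaks were called.

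Peaks over histone starts gave 0 calls among 32 tested in Cal33 with edgeR, 2 at an unadjusted p under 0.05, and 0 with DESeq2. Their log2 changes ran from -0.37 at H1-1 to 0.20 at H1-5 with a median of -0.03, and the groups of 1 of the 32 did not overlap, against 14.6% of all tested peaks. With trended offsets, 4 of them were called higher. The 20 in the promoter class had a median log2 change of -0.01 and the 12 outside it -0.05. No family stood apart in its median log2 change, which was -0.02 for H1 (5 peaks), -0.01 for H2A (11), -0.01 for H2B (14), 0.00 for H3 (10) and -0.05 for H4 (9), with shared peaks counted in each family.

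The promoter peak of H1-4, a linker histone gene, and H2BC5 had a level of 67.2 CPM per kb in Cal33 siControl and 16.5 CPM per kb in SAS siControl. It stood at 145, 148, 134 and 157 CPM in the 4 Cal33 siControl libraries and at 128, 144, 156 and 147 CPM in the siITGA7 libraries, scaled within the line, and the groups overlapped. Its log2 change was -0.02 ± 0.13 (SE, adjusted p = 0.945). In SAS it stood at 74.4, 62.4, 66.6 and 56.5 CPM in siControl and 54.3, 89.0, 78.9 and 68.6 CPM in siITGA7, again overlapping, with a log2 change of 0.19 ± 0.12 (adjusted p = 0.384).

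The named peaks of the core histone families also gave overlapping groups. The 1 histone peak without overlap in Cal33 was at H2BC6, at 14.6 to 17.2 CPM in siControl and 11.7 to 13.9 CPM in siITGA7. The H3C8 and H2BC10 peak gave 95.03 to 111 CPM in Cal33 siControl and 100 to 118 CPM in siITGA7, with a log2 change of 0.06 ± 0.12 (adjusted p = 0.796), and it was among those called with trended offsets (0.21). The H3C1 and H4C1 peak gave 53.6 to 68.0 CPM and 51.0 to 60.0 CPM, with a log2 change of -0.11 ± 0.12 (adjusted p = 0.609). The H2BC4 and H2AC6 peak gave 123 to 139 CPM and 108 to 127 CPM, with a log2 change of -0.17. In SAS these 3 peaks were not called (log2 changes of 0.02, -0.10 and 0.02). The peak over H3C4, H2AC7 and H2BC7, which lies outside the promoter class and is listed at a transcription end, gave 105 to 116 CPM in Cal33 siControl and 103 to 125 CPM in siITGA7 (log2 change 0.01).

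In SAS, peaks over histone starts gave 0 calls among 30 tested with edgeR, 4 at an unadjusted p under 0.05, and 0 with DESeq2. Of the 30, 25 had a positive log2 change, with a median of 0.12 and a range from -0.10 to 0.74 at H3C6, against a median of -0.14 over all promoter-class peaks and 0.07 over all other peaks. The 18 in the promoter class had a median of 0.06 (13 positive) and the 12 outside it a median of 0.28 (12 positive, 3 at an unadjusted p under 0.05), and the difference between them was not tested. Without SAS siITGA7 replicate 4, 2 of them were called. The test of the difference between the lines called 0 of 32, with 1 at an unadjusted p under 0.05, and 0 with DESeq2.

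**Figure D1:**
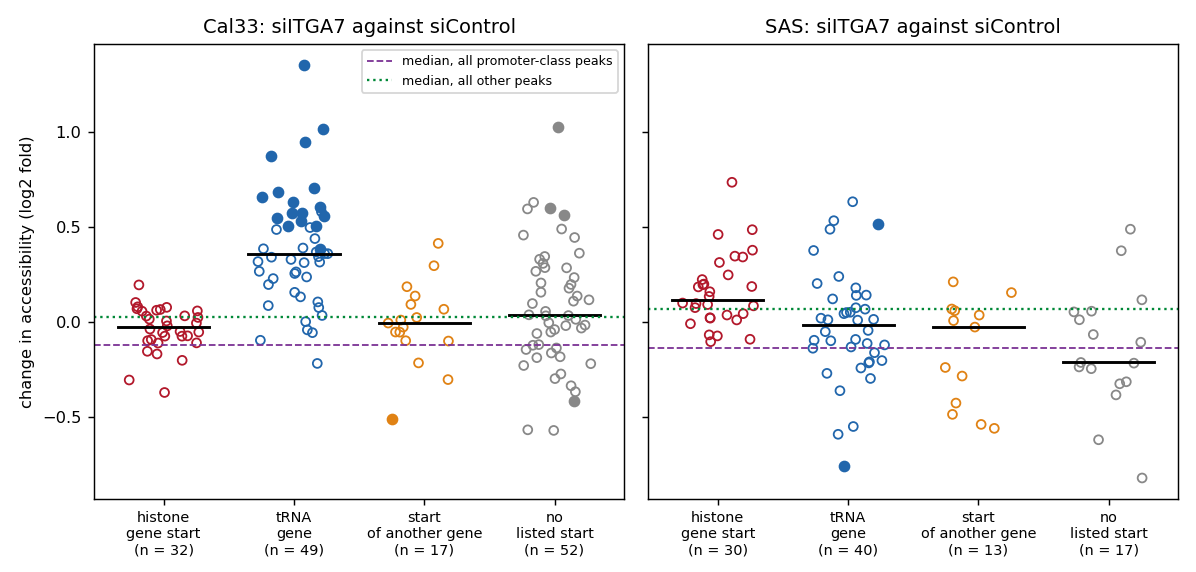
Change in accessibility after ITGA7 siRNA (log2 fold, y axis) of every tested member in Cal33 (left) and SAS (right), by what the peak lies over. Filled points passed an adjusted p of 0.05, black bars are medians, and dashed and dotted lines are the medians of all promoter-class and all other peaks. Peaks over tRNA genes in Cal33 lie mostly above 0 (median 0.36), while histone peaks lie around 0 in Cal33 (median -0.03).

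Peaks over tRNA genes were higher in Cal33 siITGA7 libraries in 45 of 49 cases, with a median log2 change of 0.36 and a range from -0.22 to 1.36. The 17 that rose changed by 0.39 to 1.36 on the log2 scale, and the groups of 20 of the 49 did not overlap, against 14.6% of all tested peaks. Over tRNA genes outside the cluster, 21 of 161 tested peaks rose and 1 fell (13.7% called), with a median log2 change of 0.12. DESeq2 called 14 of the 49 higher. Beside these values, all 4 Cal33 siITGA7 libraries held more counts than any siControl library. With every library thinned to the smallest total, 16 peaks over tRNA genes were still called higher, and with total counts in place of TMM factors 21 were.

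TRK-CTT2-4, a lysine tRNA gene, lies in an intergenic peak at chr6:26556479-26557123. It stood at 6.91, 8.32, 9.28 and 8.65 CPM in Cal33 siControl and at 20.6, 21.4, 24.1 and 19.5 CPM in siITGA7, so the groups lay far apart. The log2 change was 1.36 ± 0.13 (SE, adjusted p = 2.29e-07).

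In SAS the same peak stood at 10.3, 11.8, 17.97 and 17.9 CPM in siControl and at 13.999, 20.6, 21.1 and 7.78 CPM in siITGA7. The SAS groups overlapped and the log2 change was 0.01 ± 0.24 (adjusted p = 0.982). The difference between the lines was 1.43 ± 0.28 on the log2 scale (adjusted p = 0.00163).

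TRT-AGT2-2, a threonine tRNA gene in the intergenic peak at chr6:27684233-27684761, stood at 7.07, 4.02, 5.80 and 5.29 CPM in Cal33 siControl and at 10.7, 12.1, 12.3 and 11.5 CPM in siITGA7. No siControl library reached the level of a siITGA7 library, and the log2 change was 1.02 ± 0.16 (adjusted p = 1.22e-04). In SAS the groups overlapped, at 8.81 to 14.3 and 7.78 to 13.999 CPM.

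The peak at chr6:26311024-26313455 lies over 4 tRNA genes, for glutamine (TRQ-TTG3-1, TRQ-TTG3-2), serine (TRS-TGA3-1) and initiator methionine (TRX-CAT1-3). It stood at 54.8, 47.6, 48.3 and 61.1 CPM in Cal33 siControl and 73.2, 95.3, 99.3 and 78.6 CPM in siITGA7, again without overlap. Its log2 change was 0.71 ± 0.13 (adjusted p = 7.09e-04).

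The peak at chr6:26553337-26555385, over tRNA genes for alanine (TRA-CGC1-1), isoleucine (TRI-AAT5-1) and proline (TRP-AGG2-2), rose from 49.2 to 55.4 CPM in siControl to 68.5 to 92.4 CPM in siITGA7. The log2 change was 0.66 ± 0.12 (adjusted p = 8.97e-04). TRR-TCG2-1, an arginine tRNA gene, lies in the promoter-class peak at chr6:26321885-26323419. It stood at 27.3, 28.7, 20.7 and 22.8 CPM in siControl and 34.2, 36.0, 39.4 and 36.7 CPM in siITGA7 (log2 change 0.58 ± 0.12, adjusted p = 0.00255), and it was the promoter-class member that rose.

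Of the other named tRNA peaks, TRS-AGA3-1 for serine rose from 2.58 to 5.12 CPM in siControl to 6.40 to 8.59 CPM in siITGA7. The peak over TRI-AAT8-1 and TRR-ACG2-4 rose from 8.68 to 9.88 CPM to 13.02 to 15.5 CPM, and the TRI-AAT2-1 peak from 26.6 to 31.0 CPM to 38.9 to 41.9 CPM. None of these groups overlapped, and the log2 changes were 0.95 ± 0.20, 0.63 ± 0.13 and 0.51 ± 0.11. A peak of 189 bp at chr6:26309794-26309982, which holds no listed start and lies about 1 kb before the peak over 4 tRNA genes, rose from 2.01 to 3.88 CPM to 5.05 to 6.64 CPM (log2 change 1.03 ± 0.22, adjusted p = 0.00315).

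The tRNA peaks that rose were spread over the cluster and over amino acids. The 13 peaks in the run from 26304788 to 26597396 held 6 of them with a median log2 change of 0.49, and the 33 tested peaks in the run from 27019528 to 27903719 held 11 with a median of 0.36. The 3 peaks beyond held none (log2 changes from 0.00 to 0.11). Serine tRNA genes lay in 12 tested peaks, of which 7 rose, isoleucine genes in 6, of which 4 rose, and arginine genes in 5, of which 3 rose, while none of 4 leucine and none of 3 tyrosine peaks was called (log2 changes from -0.10 to 0.37 and from 0.08 to 0.49). Peaks with several genes count under each amino acid. The 17 peaks that rose had a median siControl level of 13.1 CPM per kb and a median width of 1701 bp, against 8.89 CPM per kb and 1340 bp for the 32 that were not called. The log2 changes of the uncalled peaks reached 0.58, above the 0.39 at which the called ones began. Calls come more easily in peaks with more counts, so that level and width are not independent of this split.

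**Figure D2:**
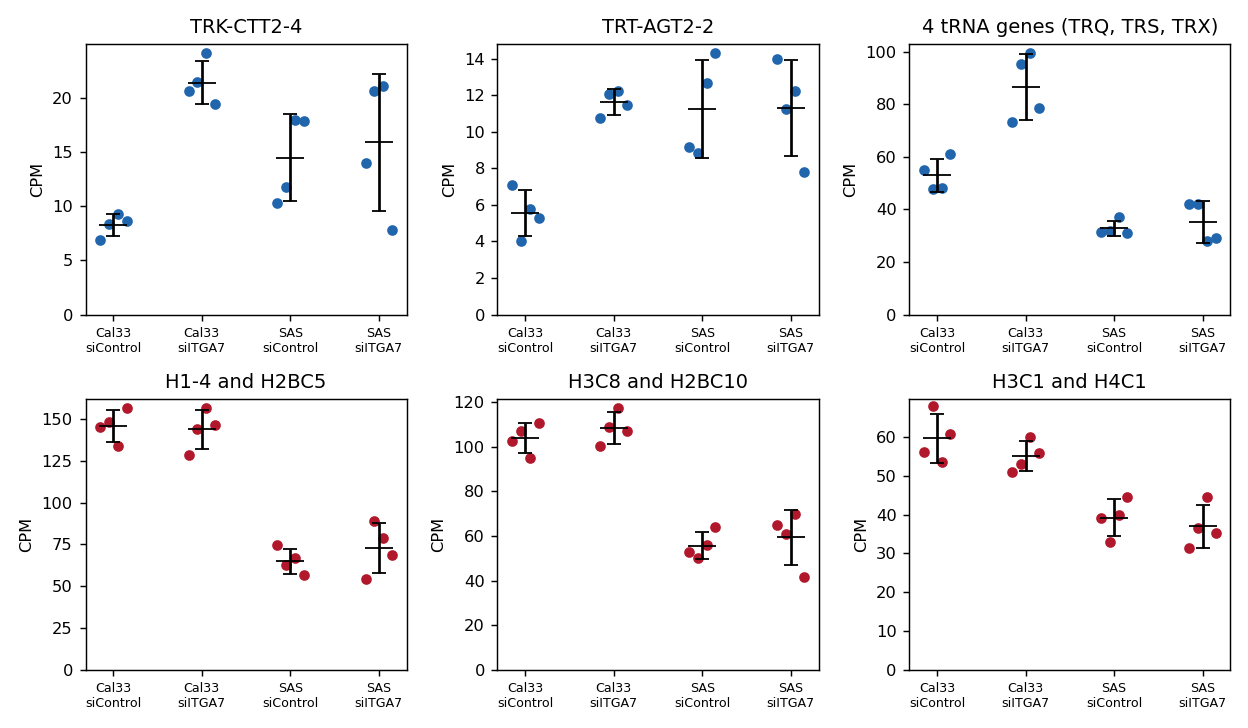
CPM in every library (points, y axis from 0, scaled within each line) of 3 tRNA peaks (top) and 3 histone peaks (bottom) in the 4 groups, with mean and SD over 4 libraries as bars. In Cal33 the tRNA peaks of siITGA7 libraries lie above every siControl library, for example 19.5 to 24.1 against 6.91 to 9.28 CPM at TRK-CTT2-4, while the histone groups overlap.

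In SAS 1 of 40 tested tRNA peaks rose and 1 fell, with a median log2 change of -0.02, and 14 of 146 tRNA peaks outside the cluster fell (9.59% called). The peak at chr6:26327320-26331840, over genes for serine, arginine, initiator methionine and tryptophan, stood at 26.0, 17.6, 32.2 and 33.2 CPM in SAS siControl and 36.8, 44.0, 40.0 and 41.7 CPM in siITGA7. It rose by 0.52 ± 0.16 on the log2 scale (adjusted p = 0.0237), and in Cal33 by 0.56 ± 0.13 (adjusted p = 0.00666). The SAS call was lost with DESeq2 (log2 change 0.54), in the fit of all 16 libraries (0.42), without a filter on low counts (0.32) and with libraries thinned to the smallest total (0.77). It was also lost without any 1 of 4 libraries (siControl replicates 1 and 2, siITGA7 replicates 2 and 4), where the log2 change was 0.40 to 0.51.

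TRI-AAT5-2, an isoleucine tRNA gene at chr6:27176606-27178578, fell in SAS from 16.1, 16.9, 21.7 and 23.9 CPM to 13.999, 7.50, 15.6 and 12.0 CPM (log2 change -0.76 ± 0.23, adjusted p = 0.0249). In Cal33 it was not called, at 22.4 to 24.7 and 21.8 to 23.7 CPM. Its SAS call was lost with DESeq2 and without any 1 of 4 libraries (siControl replicates 3 and 4, siITGA7 replicates 2 and 4).

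The change after siRNA itself differed between the lines at 4 of 141 members tested, all over tRNA genes and all higher in Cal33, where 0.761% of all tested peaks were called. None was lower, with 26 members at an unadjusted p under 0.05 in either direction, and with DESeq2 2 were higher and 0 lower. Beside TRK-CTT2-4, they were TRR-TCG2-1 (0.94 ± 0.22 on the log2 scale, adjusted p = 0.0123), TRT-AGT2-2 (1.24 ± 0.31, adjusted p = 0.0251) and the TRA-CGC1-1 peak (0.87 ± 0.22, adjusted p = 0.0261). Of tRNA peaks outside the cluster, 9 of 171 differed in the same direction (5.26%). Without SAS siControl replicate 3, 1 of the 4 calls was left, and without SAS siControl replicate 4 or SAS siITGA7 replicate 4, 2 members were called. With every library thinned to the smallest total, 0 of 76 tested members were called.

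Set against the cluster's own counts, the tRNA peaks took a larger share in Cal33 after ITGA7 siRNA, a value that does not depend on library scaling. It was 21.2%, 20.9%, 22.0% and 21.7% in siControl libraries and 26.3%, 26.6%, 26.6% and 26.3% in siITGA7 libraries (21.5% ± 0.46 and 26.5% ± 0.20, SD, n = 4). The groups did not overlap. The share of histone peaks was 55.9% ± 0.81 and 51.9% ± 0.44, also without overlap.

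The summed level over tRNA peaks was 802 ± 38.5 CPM and 1051 ± 69.0 CPM in Cal33 siControl and siITGA7, scaled within the line, and the groups did not overlap. Over histone peaks it was 2093 ± 143 CPM and 2061 ± 134 CPM, with overlap. In SAS the tRNA share was 32.8% ± 0.85 and 31.6% ± 0.18, with overlap, and the histone share was 41.8% ± 1.13 and 44.6% ± 1.61, without overlap. The summed SAS level over histone peaks was 919 ± 82.7 CPM and 1032 ± 116 CPM, with overlap. Over tRNA peaks it was 719 ± 51.4 CPM and 730 ± 55.2 CPM in SAS, also with overlap.

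**Figure D3:**
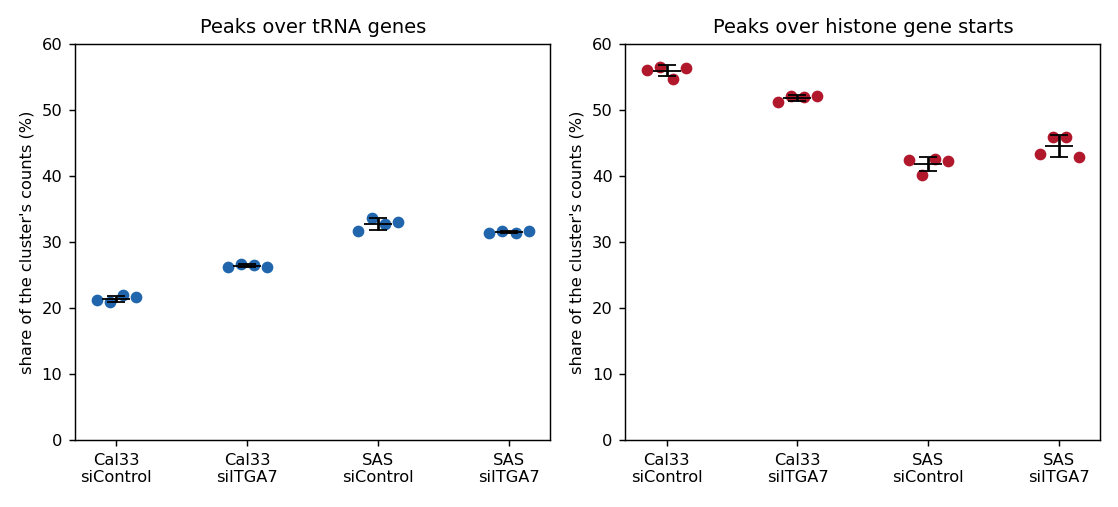
Share of the cluster's counts (%, y axis from 0) in peaks over tRNA genes (left) and over histone gene starts (right), 1 point per library, with mean and SD over 4 libraries as bars. In Cal33 the tRNA share is 20.9 to 22.0% in siControl and 26.3 to 26.6% in siITGA7, and SAS libraries lie between 31.4 and 33.7%.

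In the deposited classes, 1 promoter-class member of 49 rose in Cal33 and 1 fell, where 11.7% of all promoter-class peaks were called, 1.73% higher and 9.93% lower. Outside the class, 19 of 101 members rose and 1 fell, where 8.59% of all such peaks were called, 5.19% higher and 3.4% lower. Whether the classes differ in their change was not tested. The median log2 change was 0.01 for promoter members and -0.12 for all promoter-class peaks, and 0.20 for other members and 0.03 for all other peaks. Taken by what the peak lies over, 16 of the 19 others that rose were tRNA peaks. In SAS 0 of 40 promoter-class members were called with edgeR (3 at an unadjusted p under 0.05, 0 with DESeq2), where 8.7% of all promoter-class peaks were, and 2 of 60 others, where 6.38% were.

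The 2 members that fell in Cal33 lie among butyrophilin genes, a family of membrane proteins of the immunoglobulin superfamily. The peak over the start of BTN2A1, at chr6:26457439-26458727 and listed as exonic, stood at 25.7, 27.2, 22.9 and 24.9 CPM in siControl and 18.7, 16.1, 19.7 and 15.5 CPM in siITGA7 (log2 change -0.51 ± 0.12, adjusted p = 0.0059). BTN2A1 lies outside the rule for named peaks and was chosen after its values were seen. The promoter-class peak near BTN2A3P at chr6:26420971-26422218 stood at 19.5 to 21.2 CPM and 13.4 to 17.1 CPM (log2 change -0.41 ± 0.12, adjusted p = 0.0249), and this call was lost with total counts as library size and without any 1 of 5 libraries. The starts of BTN3A2 and BTN3A3 and of the zinc finger genes were not called in either line, among them ZNF322 (log2 change -0.30 in Cal33 and -0.49 in SAS) and ZNF184 (0.14 and -0.28).

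The genes that act on histone genes lie mostly elsewhere in the genome. Of 21 genes of the histone gene machinery, 18 had a peak over the start, while ZNF473, NCBP1 and CDK2 were not analysed here. In Cal33 5 of the 18 fell, where 9.93% of all promoter-class peaks fell, and 0 rose. These were SLBP, which binds the stem-loop of histone transcripts (-0.46), CASP8AP2, a protein of the histone locus body (-0.43), CSTF2, a cleavage factor (-0.59), HINFP, a factor of H4 promoters (-0.46), and the cell cycle factor E2F1 (-0.52), all log2 changes. In SAS 2 of the 18 fell, CASP8AP2 (-0.55) and NPAT (-0.46), where 7.28% of all promoter-class peaks fell, and 0 rose. The list's median log2 change was -0.25 in Cal33 and -0.32 in SAS, against -0.12 and -0.14 over all promoter-class peaks. The Cal33 background moved with the processing. With only the libraries of 1 sequencing run, 300 of 15136 promoter-class peaks fell, with a median log2 change of -0.03. With a mean of at least 50 counts, 1888 of 10505 fell. Calls of listed genes outside the window, here and below, were not examined under these settings.

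Histone genes outside the window were also measured. Of 17 replication-dependent ones, of which H2AW and H2BU1 were not analysed here, 8 lay in 4 peaks, which were not called in either line (log2 changes from -0.27 to 0.12 in Cal33 and from -0.11 to 0.03 in SAS). Of replication-independent histone genes, 10 had a peak, and in Cal33 2 of 9 tested fell, H2AX, the variant phosphorylated at DNA breaks (-0.52), and CENPA, the centromeric H3 (-0.54), where 9.93% of all promoter-class peaks fell. The list's median log2 change was -0.27 in Cal33, against -0.12 over all promoter-class peaks. In SAS their log2 changes were -0.18 and -0.20, which did not pass the threshold, as for the other 8.

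Between the lines, the cluster was more accessible in Cal33 than in SAS. Of 141 members tested between the siControl groups, 105 were higher and 6 lower in Cal33, where 78.2% of all 94918 tested peaks were called, 36% higher and 42.2% lower. The groups of 104 members did not overlap, against 66.9% of all tested peaks. With total counts in place of TMM factors the split was 85 higher and 24 lower, and this change moved the median of all promoter-class peaks from 0.51 to -0.13. Values are therefore given also against the class median. Copy number was not measured here, so that the line, the number of copies and the accessibility per copy cannot be told apart.

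Promoter-class members had a median log2 difference of 1.61, against 0.51 over all promoter-class peaks, and 41 of 48 were higher and 0 lower (81.7% called in that class over the series). The other members had a median of 1.14, against -0.41 over all other peaks, and 64 of 93 were higher and 6 lower (77.4% called). The distance to the class median was 1.10 and 1.56, and it was 1.10 and 1.55 with total counts and 0.69 and 0.74 with trended offsets. The promoter class had the higher median except with trended offsets (0.63 against 0.71), while the distance to the class was larger for the others in all 3.

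Peaks on both sides of the cluster were often higher in Cal33 too. In the 2.5 Mb before it the median log2 difference was 0.74 over 12 promoter-class peaks and 1.40 over 32 others, and in the 2.5 Mb after it 1.15 over 40 and 0.80 over 101. The rest of chromosome 6 gave 0.67 and 0.13. No test of the cluster against its flanks was made.

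Within the cluster, histone peaks stood at the upper end by their median, with 30 of 32 higher and 1 lower in Cal33 and a median log2 difference of 1.94. This median was 1.29 with total counts (30 higher, 1 lower) and 0.85 with trended offsets (29 higher, 1 lower), and the values by class and family that follow are those with TMM factors. The promoter-class and other histone peaks were close, at 1.98 and 1.86. By family the medians were 1.52 for H1, 2.11 for H2A, 2.08 for H2B, 1.86 for H3 and 1.64 for H4, and each H2A, H2B, H3 and H4 peak was called higher. Peaks over tRNA genes had a median of 0.72 (30 of 49 higher, 5 lower), which was 0.08 with total counts (21 higher, 16 lower) and 0.32 with trended offsets (22 higher, 9 lower), and members without a listed start 1.53. In the run from 26304788 to 26597396 the tRNA median was 1.33, and in the run from 27019528 to 27903719 it was 0.48. Over tRNA genes outside the cluster the median was 0.34, and 86 of 171 peaks were higher and 50 lower (79.5% called). Peaks over the listed genes outside the window were also mostly higher in Cal33. The 4 over replication-dependent histone genes had a median of 1.43 (4 higher), and 10 over replication-independent ones 1.05 (8 higher, 1 lower). The 18 of the histone gene machinery had 0.92 (16 higher, 0 lower), and 4 squamous markers 1.27 (4 higher). Of all 16598 tested promoter-class peaks, 9090 were higher and 4478 lower.

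**Figure D4:**
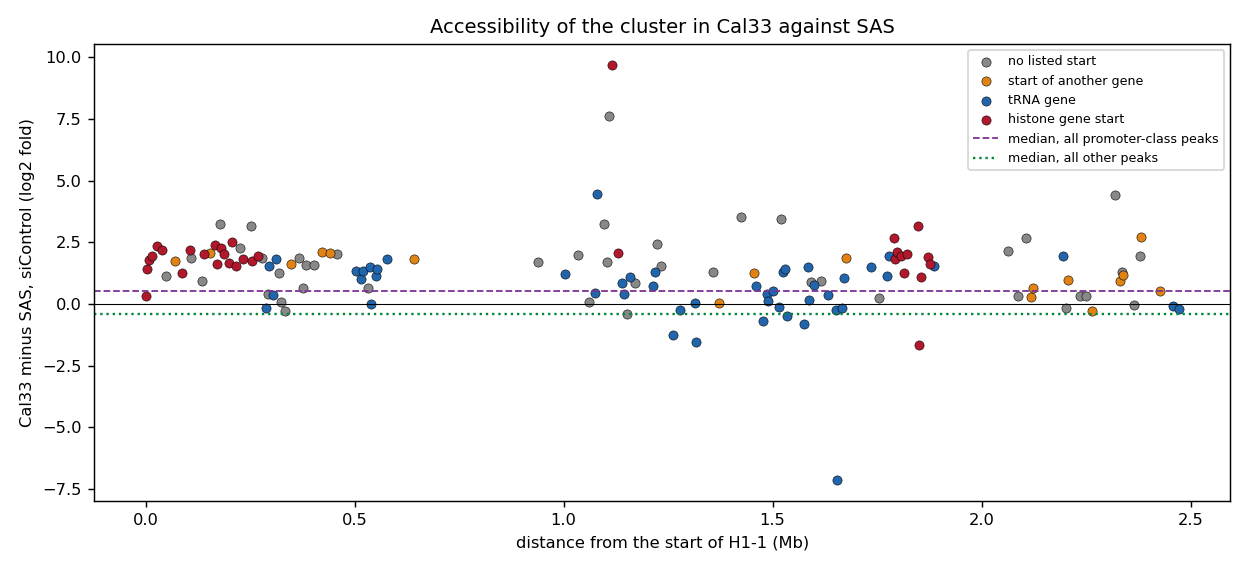
Difference in accessibility of Cal33 from SAS in siControl libraries (log2 fold, y axis) for each tested member, by distance from the start of H1-1 (Mb, x axis), coloured by what the peak lies over. Lines mark the medians of all promoter-class peaks (0.51) and all other peaks (-0.41). Most histone peaks lie near 2 (median 1.94), with 1 point at 9.70 and 1 at -1.67.

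The single largest difference was at the peak over the shared promoter of H2BC11 and H2AC11, chr6:27131527-27134109. Of its bases, the 250 before the start of H2AC11 are shown above. The 4 Cal33 siControl libraries held 930, 542, 1140 and 873 counts there and the siITGA7 libraries 1788, 1358, 1560 and 1409. The SAS siControl libraries held 2, 0, 1 and 0 counts and the siITGA7 libraries 1, 1, 0 and 1. Over the siControl groups this is 3485 against 3 counts, a ratio of 934 after scaling, with an exact 95% interval of 319 to 4533 that covers counting error only.

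Its level in Cal33 siControl was 71.4 CPM per kb, next to 76.0 CPM per kb at H2BC4 and H2AC6, and it was too low to be tested for siITGA7 in SAS. In Cal33 the log2 change after siITGA7 was 0.03 ± 0.13 (adjusted p = 0.909), and it was called with trended offsets (0.21). The next histone peak, over H2BC12 and H2AC12 at chr6:27145606-27148260, held 105, 56, 163 and 119 counts in SAS siControl. Its log2 difference of 2.05 was near the median of histone peaks.

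From TRS-GCT1-1 up to this peak, 3 more members differed by more than the median of histone peaks. An intronic peak at chr6:27127136-27127369 held 102 counts in Cal33 siControl and 0 in SAS siControl, which makes it at least 27.3-fold higher against a floor of 3 counts over the group. TRS-GCT1-1, a serine tRNA gene at chr6:27096630-27097581, held 171 and 6 counts (log2 difference 4.45 ± 0.38). An intergenic peak at chr6:27114415-27115532, chosen after its values were seen, held 314 and 26 counts (3.25 ± 0.24). Other members of this stretch had few counts in both lines. The peak starting at 27102027 held 3, 1, 3 and 2 counts in Cal33 siControl and 0, 1, 2 and 1 in SAS siControl. That starting at 27120850 held 4, 0, 20 and 14 counts in Cal33 siControl and 4, 1, 3 and 1 in SAS siControl. Whether SAS carries these bases was not measured.

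**Figure D5:**
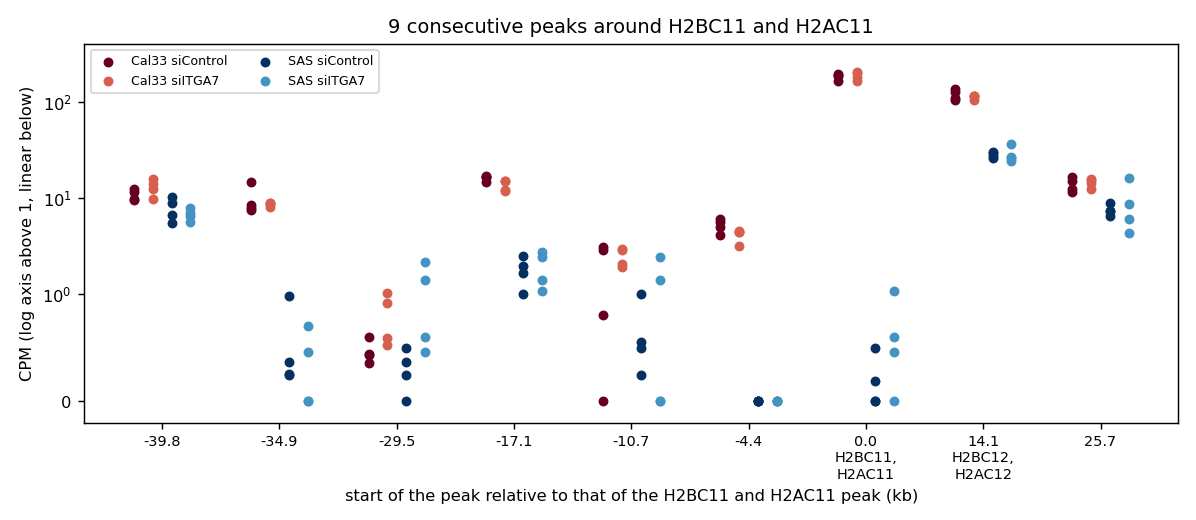
CPM in every library (y axis, log above 1 and linear below, scaled over all 16 libraries) at 9 consecutive members around the H2BC11 and H2AC11 peak, placed in order and labelled by the distance of their starts from its start (kb, x axis). At the H2BC11 and H2AC11 peak Cal33 libraries lie between 164 and 205 CPM and SAS libraries between 0 and 1.08 CPM, while both lines have counts at H2BC12 and H2AC12.

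Other large differences among promoter-class members were at H2BC13 and H2AC13 (1763 against 229 counts, log2 difference 2.69 ± 0.14), near ZSCAN31 (439 against 16, 4.43 ± 0.24) and over the starts of ZSCAN12 and LOC105374998 (60 against 7, 2.72 ± 0.47). Among the others, 2 intergenic peaks without a listed start, the one nearest to ZNF184 and that at chr6:27538336-27538724, held 63 against 4 and 129 against 9 counts.

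A few members went the other way. TRS-CGA3-1, a serine tRNA gene at chr6:27671999-27672516, held 0, 1, 0 and 0 counts in Cal33 siControl and 48, 13, 69 and 46 in SAS siControl, a ratio of SAS to Cal33 of 219 with an exact 95% interval of 38.8 to 8691. The Cal33 siITGA7 libraries held 3, 2, 0 and 1 counts there.

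H1-5, which encodes a linker histone, was the histone peak that was called lower in Cal33. It lies at chr6:27866357-27867637, is listed as exonic, and held 13, 3, 14 and 12 counts in Cal33 siControl and 24, 14, 37 and 33 in SAS siControl. Scaled over all libraries this was 1.07 to 2.64 CPM and 5.99 to 8.16 CPM, without overlap, and the log2 difference was -1.67 ± 0.27 (adjusted p = 4.01e-08). The neighbouring peak, over H2AC16, was higher in Cal33 by 3.15 ± 0.17 on the log2 scale, the second largest value among histone peaks. TRV-CAC2-1 for valine and TRK-TTT6-1 for lysine were also lower in Cal33 (log2 differences of -1.24 ± 0.24 and -1.54 ± 0.43).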

How the data were processed

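ATAC-seq libraries were sequenced with paired reads of 100 bp, per the labels. The files the authors deposited hold raw read counts of 16 libraries over 1 shared set of 164980 peaks, and a normalized signal that is each raw count over a factor of its library. Tests used the counts alone. The deposited annotation supplied class, length and nearest gene. Per the submitters' processing notes, bcl2fastq 2.20.0 and hg38 were used. The sources used here do not give the aligner, peak caller or counter, nor how duplicates, the transposase offset and reads with several matches were handled. Counts are therefore not known to be independent molecules, and intervals and floors cover counting error only.

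Histone, tRNA and other gene starts came from RefSeq (GRCh38.p14) and were assigned to a peak by position. Each line was tested apart on all peaks with edgeR 4.0.16 (R 4.3.3; TMM factors, default filter on low counts, robust quasi-likelihood fit). The differences between lines came from 1 fit of 16 libraries. In Cal33, SAS and the joint fit 30, 80 and 39 members did not pass the filter. P-values were adjusted by Benjamini-Hochberg across every tested peak, 0.05 being the threshold, and the SE is the log2 change over the root of the F statistic. The fits within each line were also run on simulated counts, and the fit of 16 libraries was not. Log2 CPM used a prior count of 2, and runs of peaks were parted at gaps over 200 kb. Alternatives used DESeq2 1.42.0, other scalings, filters and depths, single libraries left out and replicate blocks.

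Named peaks were, per line, up to 8 called members with the smallest p in and outside the promoter class, the 3 with the smallest p for the difference between lines, the 4 highest and lowest called differences between lines in each of the classes, the leading promoter peak of each histone family and the leading member per line and class. The members and lists were chosen with earlier results of these data known.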

Additional observations from a re-analysis of the deposited data

Results flagged for a closer look

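Of 106 groups of 4 libraries looked at, 11 held a library that stood apart from the other 3 by Dixon's criterion, where chance gives about 1 in 20. In SAS siITGA7 replicate 1, the library with the lowest total, the TRA-CGC1-1 peak stood at 3.54 log2 CPM against 5.07 to 5.27 in the others, and the H1-5 peak at 2.20 against 3.63 to 3.85. In SAS siControl replicate 1 the TRA-CGC1-1 peak stood at 4.87 log2 CPM against 5.15 to 5.20. In SAS siControl replicate 2 the TRV-CAC2-1 peak stood at 3.41 log2 CPM against 3.51 to 3.52, the TRS-CGA3-1 peak at 3.41 against 4.13 to 4.27, and the histone share of the cluster's counts was 40.2% against 42.2 to 42.6%. In SAS siControl replicate 3 the peak over TRQ-TTG3-1 and 3 other tRNA genes stood at 5.25 log2 CPM against 5.01 to 5.03.

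In Cal33 siControl replicate 2 the TRV-CAC2-1 peak stood at 0.98 log2 CPM against 1.41 to 1.48, and in Cal33 siControl replicate 3 the peak over H3C4, H2AC7 and H2BC7 stood at 6.72 against 6.85 to 6.86. In Cal33 siITGA7 replicate 3 the intronic peak at chr6:27127136-27127369 stood at 1.46 log2 CPM against 1.93 to 1.97, and in Cal33 siITGA7 replicate 4 the promoter class took 57.4% of the cluster's counts against 56.1 to 56.3%.

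The change after ITGA7 siRNA differed between Cal33 and SAS, by the interaction test of edgeR, at 4 tRNA peaks. The difference on the log2 scale was 1.43 at TRK-CTT2-4, 1.24 at TRT-AGT2-2, 0.94 at TRR-TCG2-1 and 0.87 at TRA-CGC1-1, with the adjusted p values given above.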

How the results depend on the processing

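In Cal33 the 20 members called higher became 32 with trended offsets and 13 with the 5 single-run libraries, and the 0 calls over histone starts became 4 with trended offsets. Sequencing runs were not spread evenly over the Cal33 groups. All promoter-class peaks summed to 515666 and 537652 CPM in siControl replicates 1 and 2, which had 2 runs, scaled within the line. They summed to 392030 and 458869 CPM in siControl replicates 3 and 4 and to 394193 to 431907 CPM in siITGA7. The 2 called lower became 1 with total counts, without a filter, when thinned and with single-run libraries. In SAS the 1 called higher became 0 with DESeq2 and when thinned and 2 with a mean of at least 50 counts. The 1 called lower became 0 with DESeq2 and with at least 50 counts and 3 without a filter. The 1 tRNA peak called higher in SAS became 0 with DESeq2, without a filter, when thinned and in the fit of all 16 libraries, and the 0 calls over histone starts became 1 with at least 50 counts. Between lines, the 105 higher became 60 with at least 50 counts and 53 when thinned, where fewer members are tested, and the 6 lower became 24 with total counts, 12 with trended offsets and 3 when thinned. The 4 differences in the siRNA change became 2 with DESeq2, 7 without a filter and 0 when thinned. Summed CPM moved with total counts in place of TMM over 16 libraries. Over promoter-class members it went from 2777 to 2083 in Cal33 siControl, 2798 to 2210 in Cal33 siITGA7, 776 to 877 in SAS siControl and 735 to 863 in SAS siITGA7. Over other members it went from 1887 to 1418, 2152 to 1699, 732 to 828 and 739 to 867. Apart from the smaller number of members tested where named, the cause was not tested.

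With 1 library left out, the Cal33 calls ranged from 13 to 22 higher (13 without siITGA7 replicate 3), 1 to 3 lower, 12 to 18 higher over tRNA genes and 0 to 0 over histone starts. SAS calls ranged from 0 to 2 higher, 0 to 1 lower, 0 to 2 higher over tRNA genes and 0 to 2 over histone starts. Between lines 102 to 111 were higher and 5 to 6 lower, and 1 to 6 differences in the siRNA change were called higher. Over named peaks and settings, 804 values kept their side of the threshold, 32 lost the call and 2 gained it. None changed direction where the main or the other setting made a call. Where neither made a call, direction was not compared.

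The labels call the replicate number a batch, so it was also taken as a block. Deviations of libraries with the same number correlated by -0.13 to 0.01. With the replicate block 18 members were higher and 2 lower in Cal33, 15 of them over tRNA genes, and 1 and 1 in SAS. The block lost or gained no call of a named peak. In SAS 80 members did not pass the filter on low counts, and the SAS siITGA7 libraries included the lowest totals. Whether depth accounts for the untested members was not tested.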
